A study of Mus musculus with 2 samples.

Results

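Peaks of DNase I cutting at the 3' ends of protein-coding genes were described in 2 cerebellum libraries of male B6CASTF1/J mice aged 36 days. The strain is an F1 hybrid of a C57BL/6J and a CAST parent. DNase-seq maps where the nuclease DNase I cuts DNA in nuclei, and a peak is a stretch of accessible chromatin. A peak was chosen when its midpoint lay within 1 kb of the 3' end of a protein-coding gene record, outside every coding exon interval and more than 1 kb from every protein-coding transcript start. The rule found 2815 of 140127 peaks (2.01%) in replicate 1 and 1981 of 114404 peaks (1.73%) in replicate 2. The same rule applied to positions 5 kb further downstream found 2468 peaks in replicate 1 and 1882 in replicate 2, after positions near a real 3' end were set aside. Both libraries form 1 group, with no treatment, and are labelled as biological replicates 1 and 2. They are treated here as 2 animals. Their donor entry in the labels is identical, so whether they came from 2 mice cannot be told. Differences between the replicates may be mostly technical. Whole tissue was used, so a strong site in few cells and a weak site in many cells cannot be told apart.

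The 3' end of a gene is where the transcript is cleaved and its poly(A) tail added, directed by signals that include the hexamer AATAAA. The 3' untranslated region, or 3' UTR, lies between the stop codon and that point. DNA there and just past it can also hold enhancers, start sites of other transcripts and sites of CTCF, a zinc finger protein that binds a long directional sequence and halts loop extrusion by cohesin. In cerebellum most nuclei belong to granule cells, the small excitatory neurons of the granular layer.

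The 5 strongest peaks found in both animals that lie wholly outside annotated exons show what such a site looks like. They are printed on the strand of the named gene, 5' to 3', for the part common to both animals, and capitals mark bases that lay in a footprint, a short protected stretch within a peak, in both animals. Sec14l2 encodes a lipid-binding protein, Fam120a an RNA-binding scaffold protein, Ubxn10 a protein of cilia, Tff3 a secreted trefoil peptide and Lag3 an inhibitory receptor of lymphocytes. On mm10 they lie at chr11:4096621-4096820, chr13:48878681-48878880, chr4:138710701-138710880, chr17:31125961-31126140 and chr6:124903661-124903860, all at genes on the minus strand. The sequences are from the GRCm38.p6 assembly of RefSeq, which is mm10.
Sec14l2: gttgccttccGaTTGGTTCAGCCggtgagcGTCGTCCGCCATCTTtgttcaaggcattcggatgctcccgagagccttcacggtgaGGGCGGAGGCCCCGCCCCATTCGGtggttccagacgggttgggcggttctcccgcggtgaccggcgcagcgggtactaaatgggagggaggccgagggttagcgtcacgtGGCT
Fam120a: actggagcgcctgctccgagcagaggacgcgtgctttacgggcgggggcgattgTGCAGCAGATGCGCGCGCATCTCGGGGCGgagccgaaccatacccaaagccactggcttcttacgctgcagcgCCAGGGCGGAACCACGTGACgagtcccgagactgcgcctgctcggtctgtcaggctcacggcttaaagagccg
Ubxn10: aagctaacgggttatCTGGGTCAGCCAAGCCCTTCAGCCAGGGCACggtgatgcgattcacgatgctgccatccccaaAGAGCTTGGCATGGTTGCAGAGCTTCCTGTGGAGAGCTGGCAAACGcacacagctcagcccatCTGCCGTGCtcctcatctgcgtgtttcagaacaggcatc
Tff3: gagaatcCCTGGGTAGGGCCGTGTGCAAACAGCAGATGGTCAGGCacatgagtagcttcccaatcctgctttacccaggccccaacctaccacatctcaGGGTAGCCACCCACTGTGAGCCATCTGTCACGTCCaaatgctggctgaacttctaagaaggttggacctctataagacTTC
Lag3: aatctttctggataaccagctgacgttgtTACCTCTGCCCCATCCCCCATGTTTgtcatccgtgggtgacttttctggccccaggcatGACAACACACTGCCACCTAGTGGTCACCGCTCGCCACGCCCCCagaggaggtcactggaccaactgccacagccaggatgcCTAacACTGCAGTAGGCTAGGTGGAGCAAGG

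These 5 sites were of unlike kinds. The Sec14l2 sequence had a GC content of 65% with 21 CpG pairs, 3 matches of the GC box GGGCGG and 1 of the core recognised by YY1, a zinc finger factor common at promoters. The Fam120a sequence had a GC content of 66%, 23 CpG pairs, 3 GC boxes and 1 match of the E-box CAGATG, a sequence bound by NeuroD-type factors. The Ubxn10 and Tff3 sequences had 7 and 2 CpG pairs, no GC box and 2 matches each of CAGATG. The Lag3 sequence held 1 CTCF match, which read against the direction of the gene. Overlapping matches were each counted.

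Heights are the authors' own value per peak and rank peaks only within an animal's list. The Sec14l2 peak, 318 bp past the 3' end, had heights of 28.6 in replicate 1 and 17.5 in replicate 2. The Fam120a peak, 438 bp past the end in replicate 1, had heights of 26.7 and 17.6 in replicates 1 and 2. The Ubxn10 peak lay in an intron 954 bp before the 3' end in replicate 1 and had heights of 26.7 and 16.96. All 3 were above the 99th percentile of their list in both animals, and none lay within 1 kb of an annotated transcript start of a non-coding gene. The Tff3 peak had heights of 25.3 and 14.8, and the Lag3 peak, 600 bp past the end, had heights of 23.6 and 14.3. Lag3 had no peak at its own promoter in either animal.

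The remaining sites among the 10 strongest shared ones were at Lars2, Cers5, Rtn2, Dand5 and Necab3. The Lars2 peak, in the 3' UTR of the mitochondrial leucyl-tRNA synthetase gene at chr9:123461921-123462080, ranked first, with heights of 36.4 and 34.8. Of its 129 overlapping 32-base words, 77 (59.7%) also occurred elsewhere on the chromosomes, up to 8 copies in all, while the other 21 peaks chosen for their height had no repeated word. Whether reads from such copies added to the height was not tested. The peak of Rtn2, which encodes a reticulon of the endoplasmic reticulum, lay 159 bp before the 3' end and had heights of 25.2 and 13.2. The peak in the 3' UTR of Dand5, which encodes a secreted antagonist of Nodal signalling, had heights of 24.3 and 12.7. The peak past Necab3, a calcium-binding protein gene, had heights of 19.3 and 14.0, and the peak in the 3' UTR of Cers5, a ceramide synthase gene, heights of 19.1 and 16.7.

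Sequence at 3' ends was only slightly richer in peaks than sequence 5 kb downstream. Per eligible Mb, that is per Mb of sequence where the rule allows a midpoint, replicate 1 had 78.4 peaks at 3' ends and 67.7 at the shifted positions, a ratio of 1.16. Replicate 2 had 55.2 peaks per Mb at 3' ends and 51.6 at the shifted positions, a ratio of 1.07. The ratio averaged 1.11 ± 0.0632 (SD, n = 2), above 1 in both animals, with a mean excess close to the gap between them. With 2 animals an exact sign-flip test cannot give a two-sided p below 0.5, so no exact test could pass a threshold and none is given. The remaining distal genome, that is all eligible sequence outside the 3' end windows, had 39.9 and 32.3 peaks per Mb in replicates 1 and 2, and 3' ends exceeded it by 1.97-fold and 1.71-fold. GC content was 43.7% in the 3' end windows, 44.0% at the shifted positions and 41.3% in the remaining distal genome.

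**Figure D1:**
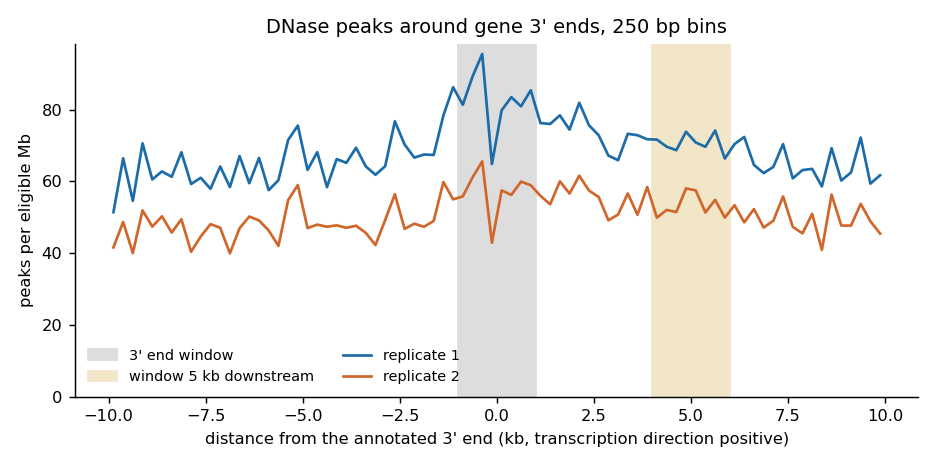
Peaks per eligible Mb (vertical axis) in 250 bp bins by distance from the annotated 3' end in kb (horizontal axis), 1 line per animal, with the 3' end window in grey and the window 5 kb downstream in tan. In replicate 1 the highest bin, 500 to 250 bp before the end, has 95.5 peaks per Mb, and the bin of the last 250 bp has 64.9.

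The excess was broad rather than centred on the end. In replicate 1, the density was 78.4 peaks per Mb from 1500 to 1250 bp before the end, 95.5 from 500 to 250 bp before it and still 81.9 from 2000 to 2250 bp past it. In replicate 2 the same 3 bins had 59.9, 65.6 and 61.6 peaks per Mb. The inside of the gene and the sequence beyond it were about equally rich in peaks. The 1 kb before the end had 78.8 peaks per Mb and the 1 kb past it 78.1 in replicate 1, a ratio of 1.01. Replicate 2 had 54.6 peaks per Mb before and 55.7 past the end, a ratio of 0.979. The direction thus differed between the animals. Numbers of peaks at the edge of the rule were similar: 272 and 197 lay 900 to 1000 bp from an end, in replicates 1 and 2, and 243 and 173 lay in the next 100 bp. Median heights were 0.799 and 1.027 within the edge, lower than the 0.965 and 1.175 in the next 100 bp.

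The end itself was a trough. In the last 100 bp of the annotated gene, replicate 1 had 33.0 peaks per Mb and replicate 2 had 26.3, the lowest of all 100 bp bins within 1500 bp. The next 100 bp had 49.5 and 38.6 peaks per Mb, and the bin from 100 to 200 bp past the end had 98.7 and 69.6. Before the trough, the bin from 500 to 400 bp before the end had 99.5 and 70.2 peaks per Mb. The trough was also seen without peak calls: bases whose false discovery rate was 0.05 or less made up 1.64% and 1.15% of the last 100 bp, against 2.67% and 1.82% at 500 to 400 bp before the end. Footprints covered 0.157% and 0.103% of bases in the last 100 bp and 0.322% and 0.190% at 500 to 400 bp before it.

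**Figure D2:**
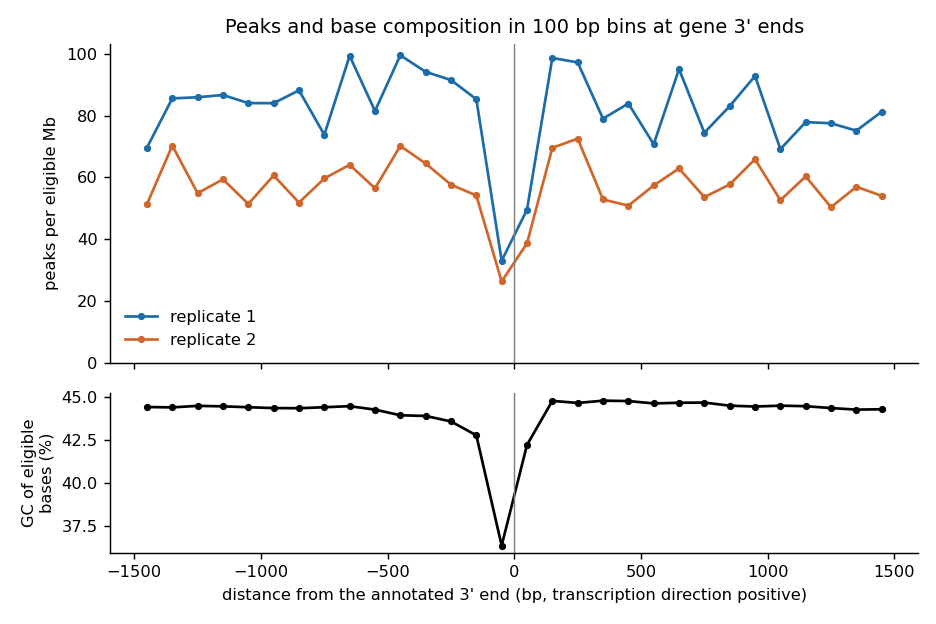
Upper panel: peaks per eligible Mb in 100 bp bins by distance from the annotated 3' end in bp, 1 line per animal. Lower panel: GC content of the eligible bases of each bin, in percent on an axis that does not start at 0. Both fall together in the last 100 bp, to 33.0 and 26.3 peaks per Mb and a GC content of 36.4%.

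Base composition moved with the trough. GC content was 36.4% in the last 100 bp, against 44.0% at 500 to 400 bp before the end and 44.8% at 100 to 200 bp past it. Peaks were rare in the AT-rich part of the windows: where the 200 bp around a base had under 40% GC, 3' end windows held 2.36 and 3.93 peaks per Mb in replicates 1 and 2, and where it had 50% or more they held 248 and 159. Among bins with a GC content of 50% or more, the last 100 bp had 166 and 126 peaks per Mb, against 245 and 163 in the bin from 500 to 400 bp before the end and 259 and 166 in the bin from 100 to 200 bp past it. Among bins with 40% to 50% GC, the last 100 bp had 57.6 and 43.7 peaks per Mb, against 52.1 and 41.7 at 500 to 400 bp before the end. The next 100 bp, just past the end, had 17.6 and 10.8 peaks per Mb in that middle class, the lowest of its bins in both animals, and 179 and 142 in the GC-rich class. In the GC-rich class the last 100 bp was thus the lowest bin within 1500 bp in replicate 1 only. In replicate 2 other GC-rich bins were lower, such as 115 peaks per Mb from 1100 to 1000 bp before the end. In the middle class the last 100 bp was not low, and the dip lay just past the end. The GC-rich bins of the last 100 bp averaged 53.5% GC, against 55.4% at 500 to 400 bp before the end. These values rest on 22 to 33 peaks per animal in the last 100 bp. The low middle-class bin just past the end rests on 13 and 8 peaks. Of all genes, 12971 of 21938 (59.1%) had AATAAA in the last 50 annotated bases. Genes with it had 31.8 and 23.4 peaks per Mb in the last 100 bp, and genes without it 35.0 and 30.9, so both kinds showed the trough.

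By annotation, 3' UTR and intergenic sequence held most 3' end peaks. The 3' UTR held 1167 peaks (41.5%) in replicate 1 and 788 (39.8%) in replicate 2. Intergenic sequence held 1122 (39.9%) and 800 (40.4%), introns 362 and 257, non-coding genes 109 and 92, and other exon sequence 55 and 44. The 3' UTR part of the windows had 84.6 and 57.1 peaks per Mb, and the intergenic part 71.4 and 50.9. At the shifted positions intergenic sequence, which held most peaks there, had 57.9 and 47.1 peaks per Mb. Introns in the 3' end windows had 75.4 and 53.5 peaks per Mb, against 83.7 and 57.3 at the shifted positions. The few 3' UTR bases at shifted positions had 105 and 72.0 peaks per Mb. Density at 3' ends was thus higher than 5 kb downstream in intergenic sequence and lower in introns and 3' UTRs, in both animals.

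In their own properties the 3' end peaks differed little from the shifted ones. Median height was 0.862 at 3' ends and 0.905 at the shifted positions in replicate 1, and 1.12 and 1.11 in replicate 2. The median percentile within the list differed by -1.47 points in replicate 1 and 0.140 points in replicate 2, 3' end minus shifted, a mean of -0.667 ± 1.14 (SD, n = 2). The top 10% of each list held 7.71% and 6.46% of the 3' end peaks and 8.96% and 7.28% of the shifted ones, in replicates 1 and 2. Median width was 180.0 bp in both sets and both animals. A footprint lay in 84.1% and 80.6% of the 3' end peaks and in 83.5% and 80.3% of the shifted peaks. Of 3' end peaks, 59.3% in replicate 1 and 85.0% in replicate 2 overlapped any peak of the other animal, against 63.7% and 83.5% of shifted peaks. Over all peaks the shares were 65.8% and 80.45%, so 3' end peaks were below in replicate 1 and above in replicate 2. The overlap share followed height: in replicate 1 it was 16.5% for 3' end peaks in the lowest of 4 height classes of the list and 99.2% in the highest, against 14.1% and 99.4% for shifted peaks. In the middle classes it was 35.8% and 72.2% for 3' end peaks, against 43.6% and 79.7% for shifted peaks.

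CpG-rich sites like those at Sec14l2 and Fam120a were uncommon. At least 15 CpG pairs in the central 200 bp, a level chosen after values were seen, were present in 96 of 2815 and 67 of 1981 of the 3' end peaks (3.41% and 3.38%), against 86 and 75 of the shifted peaks (3.49% and 3.99%). Among peaks near promoters or in coding exons the shares were 41.6% and 43.8%. Motifs were searched on both strands of the central 200 bp. The GC box was in 13.0% and 12.7% of 3' end peaks in replicates 1 and 2, in 11.5% and 10.5% of shifted peaks and in 17.2% and 16.8% of all peaks. The full cAMP response element TGACGTCA was in 5 and 4 of the 3' end peaks (0.178% and 0.202%), in 14 and 10 of the shifted peaks (0.567% and 0.531%) and in 0.664% and 0.782% of all peaks, so the difference between 3' ends and shifted positions rests on 4 to 14 peaks per set. The ETS site CCGGAAG was in 1.74% and 1.31% of 3' end peaks, 2.27% and 2.44% of shifted peaks and 3.08% and 3.27% of all peaks. The AP-1 site TGANTCA was in 5.97% and 6.26% of 3' end peaks, 6.08% and 7.01% of shifted peaks and 6.13% and 6.73% of all peaks. The E-box CAGATG was in 23.1% and 25.6% of 3' end peaks, 23.7% and 25.1% of shifted peaks and 21.6% and 22.9% of all peaks. The short NFI site TTGGCA was in 18.9% and 21.9% of 3' end peaks, with 18.9% and 21.8% of shifted peaks and 18.97% and 21.3% of all peaks. The full NFI, NRF1 and MEF2 sites and a shortened RFX site of 10 bases were in under 2% of 3' end peaks in both animals. Each was also in under 2% of all peaks. In the 200 bp of peaks inside the gene, AATAAA read along the gene in 7.56% and 8.08% and against it in 4.01% and 4.803%, while in shifted peaks it read along the gene in 4.78% and 5.37% and against it in 4.46% and 6.00%.

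CTCF matches were as common at 3' ends as 5 kb downstream and more common than in other distal peaks. They were in 8.31% and 11.2% of 3' end peaks in replicates 1 and 2, in 9.12% and 11.1% of shifted peaks, in 5.22% and 6.38% of other distal peaks and in 4.30% and 5.16% of all peaks. The difference, 3' end minus shifted, was -0.804 points in replicate 1 and 0.0508 points in replicate 2, a mean of -0.377 ± 0.605 (SD, n = 2). Of the matches at 3' ends, 94.9% and 90.1% lay in a footprint, against 93.3% and 90.9% at the shifted positions and 89.4% and 79.0% in other distal peaks.

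The strand of the CTCF sequence was unequal past the end. The consensus, taken in its usual forward direction, read along the gene in 90 of 139 matches beyond the 3' end in replicate 1, or 64.7% (95% exact binomial interval 56.2% to 72.7%), and in 88 of 136 in replicate 2, or 64.7% (56.1% to 72.7%). Inside the gene it read along the gene in 49 of 95 matches (51.6%, 41.1% to 62.0%) and 39 of 85 (45.9%, 35.0% to 57.04%). Shifted peaks, taken relative to the gene with the nearest shifted position, were between, with 58.7% (51.9% to 65.2%) and 57.4% (50.4% to 64.2%). Other distal peaks, taken relative to the gene with the nearest 3' end, had 49.1% (47.7% to 50.4%) and 48.8% (47.4% to 50.2%). The intervals cover counting error only and those of 3' end and shifted peaks overlap, so an excess beyond that of the shifted peaks was not detectable. Most of these sites were the same in both animals: 128 of the 139 peaks in replicate 1 overlapped a peak of replicate 2. Without convergent genes, defined below, the beyond share was 66.9% and 66.1%.

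**Figure D3:**
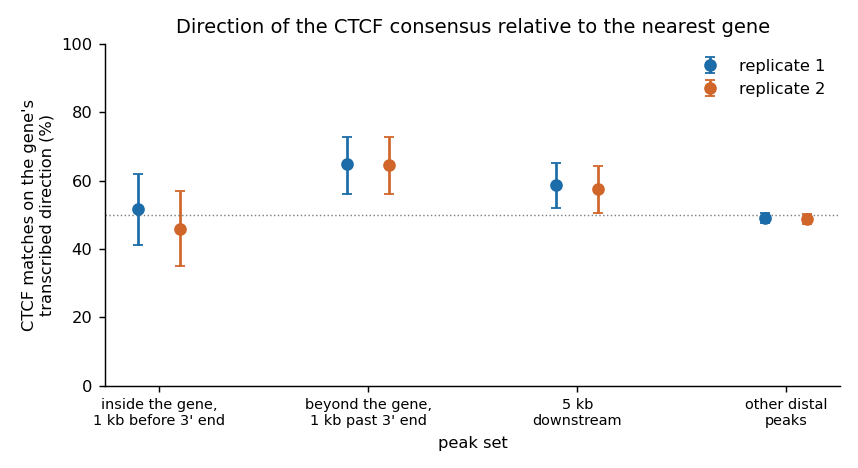
Vertical axis: percent of CTCF matches reading along the gene, in peaks inside it, beyond it, 5 kb downstream and in other distal peaks. The gene is the one with the nearest 3' end, or with the nearest shifted position for peaks 5 kb downstream. Each animal has 1 point, with exact 95% binomial intervals as bars. The dotted line marks equal numbers on both strands. The beyond points are at 64.7% in both animals, above other distal peaks at 49.1% and 48.8%.

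CTCF matches in a footprint of both animals were present at 182 shared 3' end peaks, 109 along the gene and 73 against it. The sites in the strongest of them, and at Rdh5 of a convergent pair, are printed on the gene's strand with the consensus match in capitals and 6 bases on each side. Dand5, Skap2 and Rdh5 read along the gene, and Lag3 and Ckb against it. On mm10 they are chr8:84815725-84815748, chr6:51858062-51858085, chr10:128913382-128913405, chr6:124903744-124903767 and chr12:111668524-111668547, all with the gene on the minus strand.
Dand5: ttttagCCACTAGGTGGCaccgcg
Skap2: aagtggCCAGCAGATGGCagcagc
Rdh5: agatggCCACCAGAGGGCgctttt
Lag3: cacactGCCACCTAGTGGtcaccg
Ckb: tgtgctGCCACCTGCTGGtcaggc

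The peaks around these sites were strong in both animals. The Skap2 peak, in the 3' UTR of a gene for an adaptor protein of Src-family kinases, had heights of 22.3 and 11.5 in replicates 1 and 2. The Ckb peak lay 800 bp past the gene of brain-type creatine kinase and had heights of 20.7 and 9.20. The fifth strongest CTCF site was in the 3' UTR of Pard6g, a cell polarity gene, with heights of 15.3 and 9.55. The peak in the 3' UTR of Lhx5, a LIM homeobox gene of developing Purkinje cells, also held a CTCF match in a footprint in both animals, with heights of 18.3 and 6.54.

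Convergent gene pairs had denser 3' ends than other genes. These are genes whose 3' end has the end of an opposite-strand gene within 2 kb, 3008 of the 21938 genes. A 3' end peak was present at 18.4% and 12.4% of convergent genes with eligible bases in replicates 1 and 2, and at 9.63% and 7.66% of the others. For densities each base and peak was given to the nearest 3' end. Around convergent ends replicate 1 had 146 peaks per Mb and its shifted positions 90.1, a ratio of 1.63, and replicate 2 had 83.5 against 61.6, a ratio of 1.35. Around all other ends replicate 1 had 71.6 peaks per Mb against 64.8 at the shifted positions, a ratio of 1.11, and replicate 2 had 52.4 against 50.3, a ratio of 1.04. The convergent ratio exceeded the other by 0.520 in replicate 1 and 0.314 in replicate 2, a mean of 0.417 ± 0.146 (SD, n = 2).

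The convergent excess was not uniform over GC content or distance from starts. Where local GC content was 50% or more, convergent ends had 313 and 164 peaks per Mb, against 193 and 117 at their shifted positions, and other ends had 237 and 158 against 226 and 157. At 45% to 50% GC, convergent ends had 60.3 and 46.6 peaks per Mb against 55.9 and 53.1 at their shifted positions, and the direction differed between the animals. Under 40% GC they had 1.56 and 4.69 against 4.001 and 6.67, from 1 and 3 peaks at the ends. More than 5 kb from any protein-coding start, convergent ends had 131 and 80.9 peaks per Mb in replicates 1 and 2, against 83.4 and 60.2 at their shifted positions. At 5 to 10 kb from a start the ratio of 3' end to shifted density was 1.45 and 1.47 at convergent ends and 1.48 and 1.37 at other ends, so there the excess was not larger at convergent ends in replicate 1. Beyond 30 kb the convergent ratio was 1.19 and 0.963, from 14 and 12 peaks at the ends.

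Among the strongest convergent sites were those at 4 gene pairs. The peak at Shisa8 and Srebf2, a master regulator of cholesterol synthesis, had heights of 23.2 and 11.3 in replicates 1 and 2. At Rai1 and Srebf1, the related regulator of lipid synthesis, the heights were 15.8 and 7.14, and that peak lay within 1 kb of a non-coding start. The peak at Ppp2r1b, a scaffold subunit of phosphatase 2A, and the kinase gene Sik2 had heights of 17.96 and 11.5. The peak at Rdh5, a retinol dehydrogenase gene, and Cd63, a tetraspanin gene of late endosomes, had heights of 14.9 and 7.396.

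**Figure D4:**
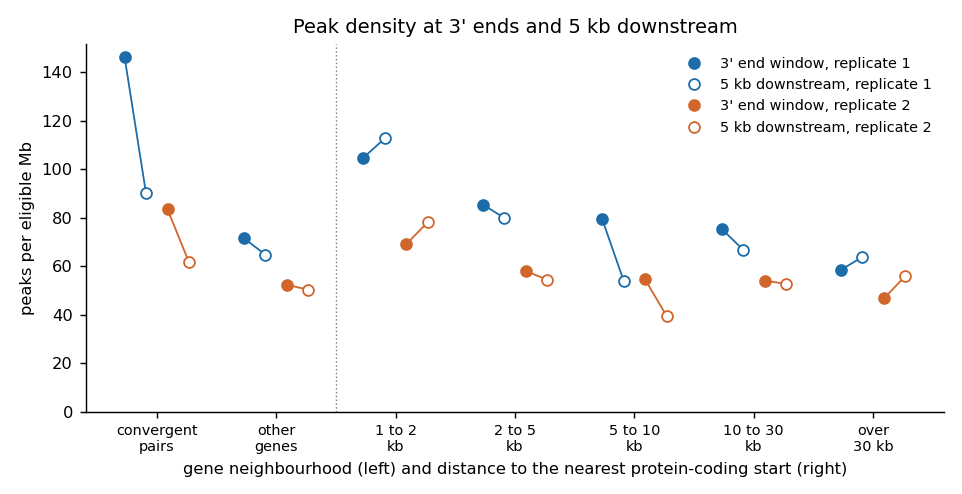
Peaks per eligible Mb (vertical axis) in 3' end windows (filled) and 5 kb downstream (open), joined within each animal, for convergent pairs and other genes on the left and by distance to the nearest protein-coding start on the right. Convergent pairs have the largest drop from the filled to the open point, 146 against 90.1 in replicate 1 and 83.5 against 61.6 in replicate 2.

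Distance to promoters differed between the 2 sets of windows. The median base lay 9.0 kb from the nearest protein-coding start in 3' end windows and 10.4 kb at the shifted positions, and 31.9% and 21.0% of bases lay within 5 kb of one. At 1 to 2 kb from a start, 3' ends had 105 and 69.2 peaks per Mb in replicates 1 and 2, fewer than the 113 and 78.2 at shifted positions. At 5 to 10 kb they had 79.5 and 54.6, more than the 54.0 and 39.5 at shifted positions. Beyond 30 kb they had 58.5 and 46.7, fewer than the 63.8 and 56.0 at shifted positions. The excess over the shifted positions was therefore not uniform, and it changed direction in the nearest and farthest classes in both animals. Over all sequence more than 5 kb from a start, a class set after the values were seen, the ratio was 1.17 and 1.07.

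Short genes had the larger ratios. The shortest 20% of genes, 57 to 5271 bp long, had 92.8 and 63.3 peaks per Mb at the 3' end against 57.3 and 39.7 at the shifted positions, counted per gene, ratios of 1.62 and 1.59. The other 4 length classes had ratios of 0.897 to 1.16. Of genes with a promoter peak in both animals, 13.7% and 10.4% had a 3' end peak in replicates 1 and 2, and of genes with none in either animal, 5.23% and 4.29%. Their shifted positions followed, with 87.3 and 66.4 peaks per Mb against 38.9 and 29.2. The ratio of 3' end to shifted density was 1.17 and 1.06 for the first class and 1.04 and 1.04 for the second.

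Counted by gene, 21811 of the 21938 protein-coding genes had at least 1 eligible base, and 127 had none. A 3' end peak was present at 2363 genes (10.8%) in replicate 1, at 1813 (8.31%) in replicate 2 and at 1588 (7.28%) in both. Most genes, 19223, had none in either animal. In replicate 1, 1904 genes had a peak at the 3' end only and 1678 at the shifted position only, and in replicate 2 the numbers were 1564 and 1495. On the X chromosome 39 and 25 of 943 genes (4.14% and 2.65%) had a 3' end peak, and 36 and 31 had a peak at the shifted position.

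The gene lists were read against those shares, 10.8% and 8.31%. Of 18 granule cell genes, 9 in replicate 1 and 5 in replicate 2 had a 3' end peak, 4 in both. Cbln1, the secreted synapse organiser that granule cells release onto Purkinje cells, had 3 and 5 peaks, as many over both animals as any other gene, a place shared with Fndc10, Olfr750, Sncb and Sptssb. Its strongest peak had heights of 2.89 and 2.29. Cbln3, which encodes a partner of Cbln1, had 3 and 2 peaks with top heights of 4.10 and 2.33. Nfix, a nuclear factor I gene, had 1 peak in each animal with heights of 2.91 and 1.35, and Gabra6, named after its values were seen, the GABA receptor subunit specific to granule cells, had 1 with heights of 0.645 and 1.21.

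Immediate early genes, which neurons induce within minutes of activity, had a 3' end peak at 5 of 16 genes in each animal, 4 in both. The highest was just past Jund, a constitutively expressed AP-1 gene, with heights of 7.89 and 5.18. That peak lay within 1 kb of an annotated transcript start of a non-coding gene. Ier2 had top heights of 3.64 and 2.86, and Junb 0.905 and 1.83. These genes are short: Jund spans 1668 bp and Ier2 1522 bp.

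**Figure D5:**
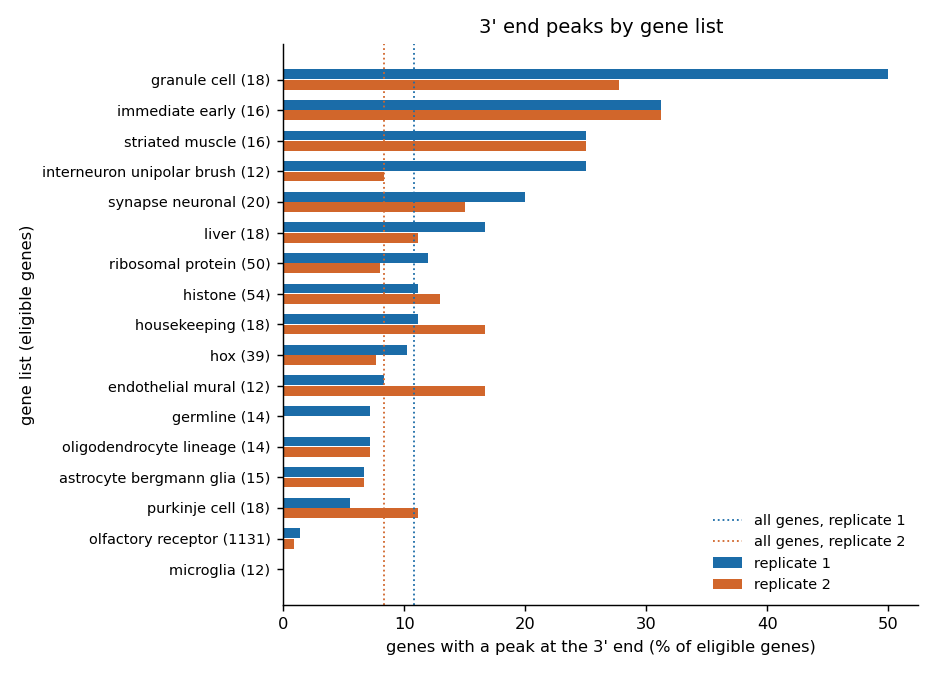
Percent of eligible genes with a 3' end peak (horizontal axis) by gene list, with the number of eligible genes in brackets, 1 bar per animal, and dotted lines at the shares over all genes, 10.8% and 8.31%. Granule cell genes are highest in replicate 1, with 9 of 18, and microglia genes are at 0 in both animals.

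Lists of other cerebellar cells had 0 to 3 genes with a 3' end peak in each animal. Purkinje cell genes had 1 and 2 of 18, with Lhx5 the strongest and a weaker peak at Lhx1 in replicate 2 alone, at 0.632. Interneuron and unipolar brush cell genes had 3 and 1 of 12, with Grm2, the glutamate receptor of unipolar brush and Golgi cells, at 4.13 and 1.94. Genes of astrocytes and Bergmann glia had 1 of 15 in each animal, which was Slc1a3, the glial glutamate transporter, at 1.51 and 0.790. Oligodendrocyte lineage genes had 1 of 14 in each, Olig1 in replicate 1 and Cnp in replicate 2. Endothelial and mural genes had 1 and 2 of 12. Microglia genes had 0 of 12 in both, which for 12 genes allows a share of up to 25%. Synapse genes had 4 and 3 of 20, led by Vamp2, the vesicle SNARE synaptobrevin, at 11.5 and 5.21.

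Lists of genes of other tissues were mixed. Striated muscle genes had 4 of 16 in both animals, the same 4 genes: Acta1, skeletal actin, had heights of 11.98 and 8.13, Myl2, a myosin light chain gene, 3.02 and 1.58, Myod1, the muscle determination factor gene, 2.67 and 1.54, and Mylpf, another myosin light chain gene and named after its values were seen, 0.547 and 1.09. Liver genes had 3 and 2 of 18, and germline genes 1 and 0 of 14. Housekeeping genes had 2 and 3 of 18, with Gapdh, a glycolysis enzyme gene, at 3.003 and 1.97. Ribosomal protein genes had 6 and 4 of 50. Histone genes, whose main transcripts end in a stem-loop instead of a poly(A) tail, had 6 and 7 of 54, with the linker histone gene Hist1h1c at 6.67 and 6.50. Hist1h1c spans 1560 bp, and its promoter peak had these same heights, so it may be the same peak. Hox genes had 4 and 3 of 39, with Hoxa13 at 3.39 and 1.66. Olfactory receptor genes had 16 and 10 of 1131, the lowest share among lists with a peak in both animals (1.41% and 0.884%).

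The genes with the most 3' end peaks were led in height by Sncb, which encodes beta-synuclein, a presynaptic protein, with 4 peaks in each animal and top heights of 18.04 and 12.6. Fndc10 had 4 and 4 peaks with top heights of 0.889 and 1.27, and Sptssb, a subunit of serine palmitoyltransferase, had 3 and 5 with 1.66 and 2.92. Olfr750 had 5 and 3 peaks with top heights of 3.36 and 0.938 and no promoter peak, unlike most olfactory receptor genes, which had no 3' end peak.

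In 1635 cases a 3' end peak of replicate 1 overlapped a 3' end peak of replicate 2, at 1443 genes. In 253 of the 1635 cases the gene had no promoter peak in either animal. Of all genes with eligible bases, 7129 of 21811 had no promoter peak in either animal. After Lag3, the strongest of the 253 were at Sf3b5, Copz2, Stac3 and Gm17545. The Sf3b5 peak, at a splicing factor gene, had heights of 13.0 and 12.5 and 20 CpG pairs in 200 bp. The Copz2 peak, 888 bp past a coatomer subunit gene in replicate 1, had heights of 18.3 and 9.38 and 15 CpG pairs. The Stac3 peak, 928 bp past a gene of muscle excitation-contraction coupling in replicate 1, had heights of 16.4 and 9.77, and the Gm17545 peak 13.0 and 9.87.

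The animals differed most in weak peaks. 3' end peaks not overlapped in the other animal had median heights of 0.477 in replicate 1 and 0.435 in replicate 2, against 1.71 and 1.35 for overlapped ones. Shifted peaks were much alike, with 0.423 and 0.425 against 1.74 and 1.40. At 50 genes replicate 1 had 3 or more 3' end peaks and replicate 2 none, and the reverse occurred at 0 genes. With 2 or more against none the counts were 137 and 7 genes. Of the 50, only 4 were in any of the gene lists, and they were named after their values were seen. Rbfox3, the gene of the neuronal nuclear antigen NeuN, and Cntn2, a contactin gene, are of the granule cell list. Camk2b, a calcium-dependent kinase gene, and Grin1, the obligatory NMDA receptor subunit, are of the synapse list. Each had 3 peaks in replicate 1, with top heights of 0.466, 0.629, 0.352 and 1.15. Within the granule cell list, Cbln1 with 3 and 5 peaks and Neurod1 with 0 and 1 went the other way. Replicate 1 had more peaks genome-wide, and the part of that difference in the counts of 50 and 137 genes was not tested. With equal numbers of the strongest peaks taken from both animals, 9.98% of genes in replicate 1 and 8.31% in replicate 2 had a 3' end peak.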

How the data were processed

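DNase-seq peaks were used from 2 cerebellum libraries, labelled as biological replicates 1 and 2 and treated as 2 animals. Coordinates are on mm10 and peaks were called per animal, per the labels and the file headers; for the aligner and both callers no name was given in the sources used here. Each peak carries a deposited signal, called its height here, which served for ranks within a list. The deposited footprint entry and false discovery rates are p-value types of measure; the footprint entry is 0.01 throughout, and the deposited rate file lists only stretches below 0.05. The depth per library is unknown, so peak heights carry no interval.

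The larger of 2 deposited peak lists per animal was the main one. Gene records, transcript starts, coding intervals and exons came from GENCODE M21 and sequence from GRCm38.p6. Each peak was placed by its midpoint. Density was peaks per Mb of eligible bases, those within 1000 bp of a 3' end, outside coding intervals and assembly gaps and more than 1000 bp from protein-coding starts; shifted windows lay 5000 bp downstream, without bases already in a 3' end window. Peaks shared between animals overlapped by at least 1 bp. Motifs were searched in 200 bp around midpoints on both strands. Intervals for shares are exact Clopper-Pearson at 95% and, like the limit for a count of 0 (3 counts), cover counting error only. Repeated sequence was counted as 32-base words on the main chromosomes. Peaks and genes are not replicates, so differences were set against the SD of 2 animals. The counting was tested on simulated peaks. For the density ratio these were drawn inside the same windows, so that test does not cover how the windows were placed. Tools were Python 3.11.15, numpy 2.4.6, pandas 2.3.3, scipy 1.17.1 and matplotlib 3.10.9.

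The members and gene lists were chosen with earlier results of these data known. Named were the 10 strongest shared peaks by mean percentile, up to 3 genes per list by the same measure, the 5 genes with most peaks, and the 5 strongest shared peaks without a promoter peak, with a CTCF match in footprints of both animals and at convergent pairs. Alternatives covered the peak list, window, shift, gene end, start distance, height, motif window, animals and the false discovery rate as the measure. Some named items are not reported here.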

Additional observations from a re-analysis of the deposited data

How the results depend on the processing

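The 3' end to shifted density ratio averaged 1.11 and was above 1 under every alternative run. It was 1.22 with a shift of 10 kb downstream and 1.20 with a shift of 5 kb upstream, the values that moved by more than the SD of the animals. Leaving out 1 animal gave 1.07 to 1.16. More than 5 kb from a start it was 1.12 and without convergent genes 1.07, both chosen after seeing the data. The inside to beyond ratio, 0.994 on average, was 0.913 in the smaller peak list, 0.969 with all annotated starts set aside and 0.956 for peaks above the median height. Leaving out 1 animal gave 0.979 to 1.01. The share of genes with a 3' end peak, 9.57% on average, was 6.57% in the smaller list, 5.35% with a window of 500 bp, 16.2% with 2000 bp and 5.96% for peaks above the median height. Leaving out 1 animal gave 8.31% to 10.8%. The difference in median percentile was 0.855 with the upstream shift, opposite in sign to the average of -0.667, and leaving out 1 animal gave -1.47 to 0.140. The difference in CTCF share was -1.36 points with the shift of 10 kb, and leaving out 1 animal gave -0.804 to 0.0508. Its sign and that of the percentile difference are therefore not determined by these data. The other 40 of 51 values moved by no more than the SD of the animals. These 40 include the values with 1 animal left out, each of which is the value of the remaining animal. Such a value always lies within the SD of the mean, whatever the data. The values with 1 animal left out therefore could not have moved and say nothing about stability. The causes of the larger moves were not tested. With 1 group, no fit with a replicate block between groups could be made, and 3' end and shifted values are compared within each animal. Depth is unknown, and weak peaks of 1 animal limit every count.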
